A study of Homo sapiens with 10 samples.

Results

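The loci described here were transcribed loci without a gene symbol that lay in a stretch of the genome shared with 2 or more annotated genes. They were found in the authors' deposited table of loci compared between 2 nuclear RNA fractions of HEK293, a human embryonic kidney cell line that grows attached to the dish. A locus was a member where it carried an unnamed-locus identifier, had been tested, lay in a region over 500 bases long and shared that region with 2 or more rows carrying gene identifiers. This gave 134268 members in 6312 regions, or 69.6% of the 192931 tested loci and 76.9% of the 174660 tested unnamed loci. The groups were the chromatin pellet extract (CPE, 3 samples), and the soluble nuclear extract (SNE, 3 samples) as its counterpart. Nuclei of 3 biological replicates had been released with detergent and fractionated, and stranded total RNA libraries were made from each fraction. All samples came from 1 cell line, and no treatment separated CPE from SNE. Chromatin pellets labelled with DRB (2 samples), an inhibitor of transcription elongation, and as mock (2 samples) were not analysed here. The table held 1 FPKM value (fragments normalised to length and library size) per group. No spread between replicates could therefore be given, and differences were read from the q-value of the authors' own test.

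RNA that is still attached to a transcribing polymerase, together with transcripts that stay at the chromatin after synthesis, is recovered in the chromatin pellet of a nuclear fractionation. Introns are cut out and degraded in the nucleus, while spliced messenger RNA leaves the chromatin and passes through the soluble nucleoplasm on its way to the cytoplasm. In total RNA libraries such fractions therefore hold reads from introns, antisense transcripts, transcripts that run past gene ends and RNAs without annotation. An assembler or quantifier groups loci whose fragments touch into 1 region and divides the reads between them. The table gave only the coordinates of that region, so a member's own position, exons and strand were not known, and whether it lay in an intron of a neighbouring gene could not be read.

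The regions are best seen by the genes in them, and 4 promoters are shown for regions at either end of the comparison. IMMP2L, a subunit of the inner mitochondrial membrane peptidase, and SLIT2, a secreted guidance ligand for ROBO receptors, lay in regions with many members higher in CPE. PTPRS, a receptor-type protein tyrosine phosphatase, and U2AF2, the splicing factor subunit that binds the polypyrimidine tract, lay in regions with the most members higher in SNE. Each sequence runs from 250 bases before to 50 bases after the gene's start in RefSeq on GRCh38.p14, 5′ to 3′ on the gene's strand. The positions there are chr7:111562443-111562742 on the minus strand for IMMP2L, chr4:20251655-20251954 on the plus strand for SLIT2, chr19:5340763-5341062 on the minus strand for PTPRS, and chr19:55654785-55655084 on the plus strand for U2AF2. Capitals mark the GC box, searched as GGGCGG and its reverse complement CCGCCC, with overlapping matches kept.
IMMP2L: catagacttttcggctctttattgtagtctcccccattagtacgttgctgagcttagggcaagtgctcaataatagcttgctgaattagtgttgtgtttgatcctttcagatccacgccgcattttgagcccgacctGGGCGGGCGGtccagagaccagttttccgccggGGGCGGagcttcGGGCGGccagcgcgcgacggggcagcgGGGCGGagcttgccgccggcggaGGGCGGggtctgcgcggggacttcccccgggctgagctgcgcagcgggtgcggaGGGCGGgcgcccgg
SLIT2: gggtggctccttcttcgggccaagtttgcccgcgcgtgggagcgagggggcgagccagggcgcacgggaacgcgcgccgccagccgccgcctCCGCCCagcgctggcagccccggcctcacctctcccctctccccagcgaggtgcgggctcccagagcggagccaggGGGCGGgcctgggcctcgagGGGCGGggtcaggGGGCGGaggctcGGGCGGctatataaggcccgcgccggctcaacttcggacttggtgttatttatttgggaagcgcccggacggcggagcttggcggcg
PTPRS: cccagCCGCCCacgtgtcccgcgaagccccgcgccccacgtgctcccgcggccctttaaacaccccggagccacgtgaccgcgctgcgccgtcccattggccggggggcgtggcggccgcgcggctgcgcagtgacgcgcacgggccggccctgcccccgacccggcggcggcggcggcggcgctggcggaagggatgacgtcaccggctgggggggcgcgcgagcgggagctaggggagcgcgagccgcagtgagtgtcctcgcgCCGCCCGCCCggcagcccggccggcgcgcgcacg
U2AF2: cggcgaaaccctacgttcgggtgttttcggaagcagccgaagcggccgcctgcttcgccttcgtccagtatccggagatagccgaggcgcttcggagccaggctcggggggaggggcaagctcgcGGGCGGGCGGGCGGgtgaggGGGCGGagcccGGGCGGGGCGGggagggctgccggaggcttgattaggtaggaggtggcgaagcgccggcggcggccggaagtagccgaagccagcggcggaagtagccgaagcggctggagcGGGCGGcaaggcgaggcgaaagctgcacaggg
The GC box occurred 7 times in the IMMP2L promoter, 5 times in SLIT2, 3 times in PTPRS and 7 times in U2AF2. It was present in 44.6% of the 27305 RefSeq promoters of the same length. The number of CG dinucleotides was 31, 36, 55 and 40 in the same order of genes, against a median of 14 over all promoters. None of the 4 held TATAAA or its reverse complement, which 12.0% of all promoters held. Only these exact strings were searched, and the SLIT2 window held TATATAAG, which was not counted. These counts describe 4 windows only. The promoters of MECOM and FLYWCH1, genes of 2 other regions described below, were also searched and are not shown. They held 2 GC boxes each, with 19 CG dinucleotides for MECOM and 33 for FLYWCH1.

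Small RNA genes inside the regions give a further view of what surrounds the members. The region of LINC00478, the host transcript of a microRNA cluster, holds the genes of miR-99a, let-7c and miR-125b, and the SLIT2 region holds a gene of miR-218. Their mature 5′ arms are shown with the seed, bases 2 to 8, in capitals, from RefSeq on GRCh38.p14.
hsa-miR-99a-5p: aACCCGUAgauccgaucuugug
hsa-let-7c-5p: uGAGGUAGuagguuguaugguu
hsa-miR-125b-5p: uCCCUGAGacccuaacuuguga
hsa-miR-218-5p: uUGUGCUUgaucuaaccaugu
No seed was shared among these 4. MIR99A, MIRLET7C and MIR125B2 were listed at 0 FPKM in CPE and in SNE and were not tested, in the authors' deposited table. MIR218-1 was listed at 34.6 FPKM in CPE and at 0 in SNE there, which did not pass (q = 0.459). The members of these regions are described further on. All 104 in the SLIT2 region were above 0 in both fractions, as were 117 of 128 in the LINC00478 region, where 11 were listed at 0 in SNE.

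Nearly all members had a larger value in CPE than in SNE, while few of them were called. By the authors' q of at most 0.05, 8369 members (6.23%) were higher in CPE, against 470 (0.350%) higher in SNE, so that 94.7% of the called members were higher in CPE. Over all tested loci, the shares were 8.73% higher in CPE and 4.3% higher in SNE. The share of members higher in CPE was thus below that of the whole table, and the share higher in SNE was further below it. The remaining 125429 members were not called. Among the 123950 members above 0 in both groups, the log2 ratio (CPE over SNE) had a median of 3.26, a 9.57-fold difference, with quartiles of 2.43 and 3.99, and 97.6% had a ratio above 0. The median over all tested loci above 0 in both groups was 3.05. Where both groups had at least 1 FPKM, the members' median was 1.60 over 9788 loci, with 1491 members higher in CPE and 405 higher in SNE. Called members had at least a 2-fold difference in 8264 of 8369 cases higher in CPE and in 419 of 470 cases higher in SNE.

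**Figure D1:**
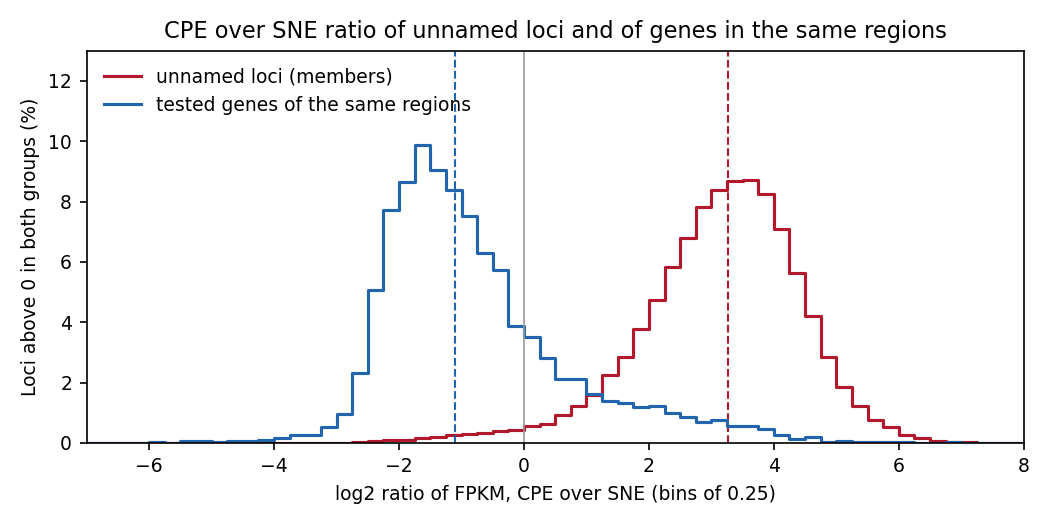
Distribution of the log2 ratio of FPKM, CPE over SNE, for unnamed loci in regions with several genes and for tested genes of the same regions, in percent of loci above 0 in both groups per bin of 0.25. Dashed lines are the medians, 3.26 for the unnamed loci and -1.11 for the genes, on opposite sides of 0.

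The contrast with the genes in the same regions was wide. Of 12393 tested genes there, 132 (1.07%) were higher in CPE, against 4193 (33.8%) higher in SNE. Their median log2 ratio was -1.11, which is a 2.16-fold higher value in SNE. Unnamed loci in regions with 1 gene had 11.3% higher in CPE and 1.60% higher in SNE, with a median log2 ratio of 2.98 (28392 loci). Those in regions without a gene had 49.2% higher in CPE and 0.953% higher in SNE, with a median of 3.22 (7029 loci). At 1 FPKM or more in both groups the medians were 1.60 for the members, 1.13 with 1 gene (3054 loci) and 0.15 with no gene (119 loci). These differences between sets of loci were not tested, since loci of a region share reads.

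Most members had little signal in SNE and a modest signal in CPE. The median was 1.07 FPKM in CPE and 0.115 FPKM in SNE, and the quartiles ran from 0.693 to 2.23 FPKM in CPE and from 0.0509 to 0.294 FPKM in SNE. The low end of the distribution differed in shape: 5% of members lay at or below 0.453 FPKM in CPE, whereas 5% or more were listed at 0 in SNE. In all, 10314 members were listed at 0 in SNE only and 4 were listed at 0 in CPE. None of the 10314 was called by Cuffdiff, and 9 reached a p of at most 0.05 before adjustment. Their lowest q was 0.126, and their median CPE value was 0.920 FPKM. The sources used here did not say how the unnamed loci had been defined. The part that their definition plays in the low end of the CPE values, and so in the members' ratios, was not tested.

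Members called in opposite directions differed in level and in surroundings. Members higher in CPE had a median of 2.13 FPKM in CPE and 0.256 FPKM in SNE, in regions with a median length of 172.9 kb and 27 unnamed loci. Members higher in SNE had a median of 2.94 FPKM in CPE and 8.20 FPKM in SNE, in regions with a median length of 67.9 kb and 8 unnamed loci. Every member higher in SNE had at least 1.01 FPKM in SNE. The share called differed with the level: 0.407% of members at up to 0.5 FPKM in CPE were higher in CPE, rising through 7.50% between 1 and 2 FPKM to 18.0% over 10 FPKM. By the size of the ratio, the share higher in CPE was 9.33% at log2 ratios of 1 to 2, 7.27% at 3 to 4 and 0.185% at 5 to 6, and none of 688 members over 6 was called by Cuffdiff, 3 of them at a p of at most 0.05 before adjustment. Those members over 6 had a median of 0.889 FPKM in CPE and 0.0110 FPKM in SNE. On the other side, 53.1% of the 239 members with a ratio under -2 were higher in SNE.

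Regions with more genes had a smaller share of called members, and over all members a slightly larger ratio. Members higher in CPE made up 8.44% in regions with 2 genes, 7.20% with 3, 5.65% with 4 to 5, 4.80% with 6 to 10 and 3.76% with 11 or more. Members higher in SNE made up 0.607%, 0.506%, 0.286%, 0.141% and 0.101% over the same classes. The median log2 ratio was 3.10, 3.13, 3.32, 3.38 and 3.44 in that order, but 1.52, 1.54, 1.68, 1.69 and 1.44 at 1 FPKM or more in both groups. Regions with more genes were longer and held fewer members for their length, with 16.0 members per 100 kb at 2 genes and 9.58 at 11 or more. The median region was 91.8 kb long, with 3 genes and 11 unnamed loci, and the extremes were 77 genes in 1 region and 484 unnamed loci in another. The length limit left out 1 tested locus, CLOC_163480 in a region of 323 bases, with 18.5 FPKM in CPE and a listing at 0 in SNE (q = 0.000706 in the authors' deposited table), and the shortest region kept had 833 bases.

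The number of unnamed loci in the region separated the members more than the number of genes did. A member that was the only unnamed locus of its region was higher in CPE in 34.6% of 384 cases and higher in SNE in 10.2%. With 2 to 5 unnamed loci these shares were 19.9% and 3.11%, with 6 to 20 they were 9.06% and 0.760%, with 21 to 100 they were 5.02% and 0.110%, and with over 100 they were 4.13% and 0.0145%. The median log2 ratio ran the other way over the same classes, from the low end 1.62, 2.04, 2.60, 3.31 and 3.84. The CPE level stayed within a narrow range, 1.29 FPKM for the only unnamed locus and 0.953 FPKM at over 100. The SNE level was 0.495 FPKM at the low end and 0.0650 FPKM at the high end. The larger ratios in crowded regions went with lower SNE values, while the CPE medians differed little. CPE values had a low end that SNE values lacked, and the part this plays here was not tested.

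**Figure D2:**
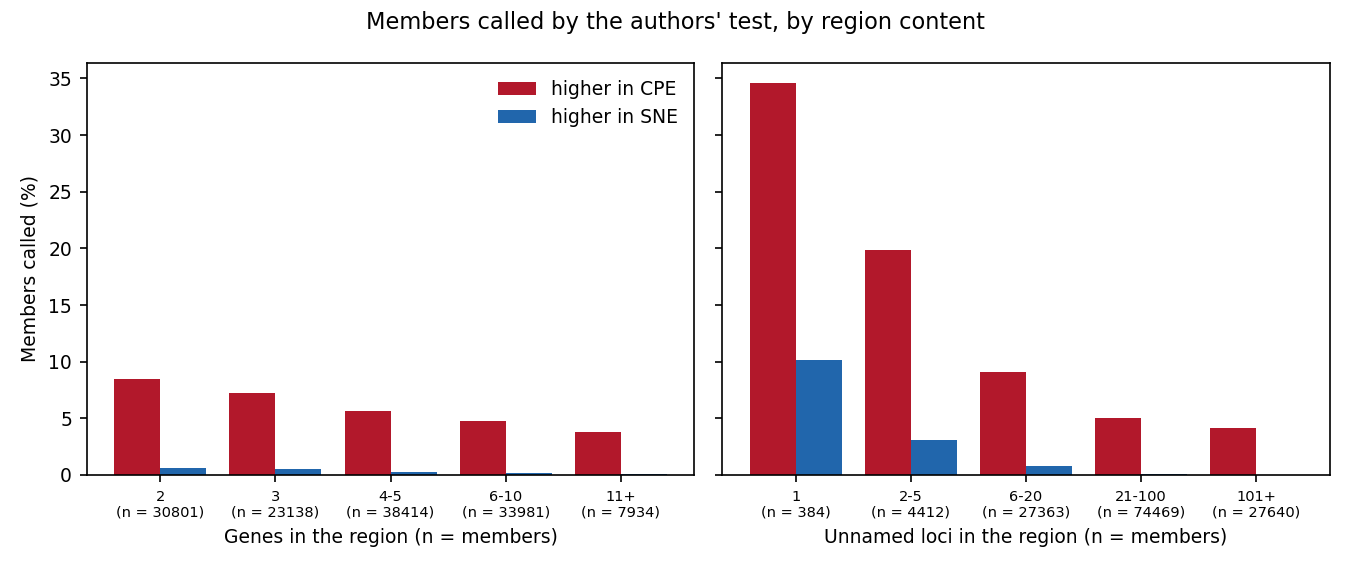
Percent of members called higher in CPE and higher in SNE by the authors' q of at most 0.05, by number of genes (left) and of unnamed loci (right) in the region, with the number of members under each class. The share higher in CPE was 8.44% at 2 genes and 3.76% at 11 or more, but 34.6% at 1 unnamed locus and 4.13% at over 100.

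In percentage points, the number of genes made a smaller difference within the classes of 6 or more unnamed loci than in the sparser classes. At 1 unnamed locus, 38.0% of 237 members were higher in CPE with 2 genes and 25.5% of 47 with 4 to 5. The shares higher in SNE there were 6.33% and 23.4%. At 2 to 5 unnamed loci, 21.7% of 2434 members were higher in CPE with 2 genes and 14.7% of 190 with 6 to 10. At 6 to 20 unnamed loci, 9.75% of members were higher in CPE with 2 genes, 8.86% with 3, 8.66% with 4 to 5, 8.43% with 6 to 10 and 7.20% with 11 or more. At 21 to 100 unnamed loci, the shares were 5.68%, 5.73%, 4.89%, 4.42% and 3.54% from 2 genes to 11 or more. At over 100 unnamed loci, the shares ran between 3.60% and 4.76%. At 21 to 100 unnamed loci the median log2 ratio was 3.40, 3.37, 3.32, 3.23 and 3.13 from 2 genes to 11 or more, and at 6 to 20 it was 2.65, 2.61, 2.59, 2.43 and 2.82. At 2 genes, by contrast, the share was 38.0% with 1 unnamed locus and 4.76% with over 100. The number of unnamed loci went with region length (Spearman's rho 0.72 over 6312 regions) more than with the number of genes (0.38). Loci of 1 region share reads, and Cuffdiff takes the uncertainty of dividing them into account. Crowding, region length and that uncertainty cannot be told apart here. Counted by region, a member higher in CPE was present in 34.6% of regions with 1 unnamed locus and in 95.7% of regions with over 100, since more loci were tested in each.

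**Figure D3:**
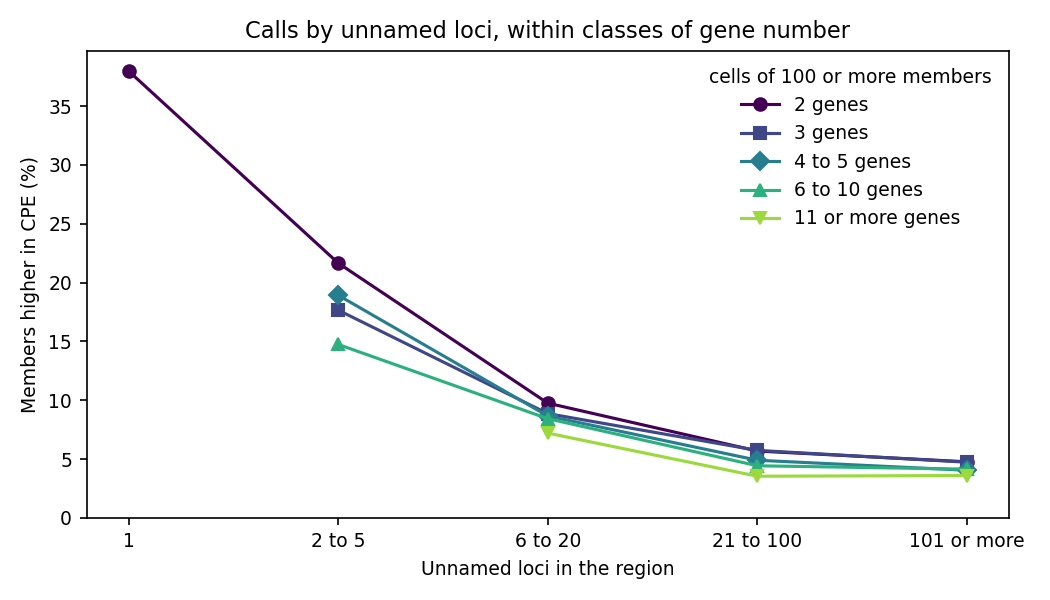
Percent of members higher in CPE (authors' q of at most 0.05) by number of unnamed loci in the region, with 1 line for each class of gene number; only combinations with 100 or more members are drawn. At 6 to 20 unnamed loci the lines lay between 7.20% and 9.75%.

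By their medians, given below with the limit of their filter, members and genes of 1 region mostly stood on opposite sides. Their calls did so in a minority of regions. In 3912 of 6312 regions (62.0%) a member was higher in CPE, and in 3520 (55.8%) a gene was higher in SNE. Both held in 1899 regions (30.1%), while a member and a gene both higher in CPE were found in 79. A member higher in SNE was present in 432 regions, and 268 of these (62.0%) also had a gene higher in SNE. Members called in both directions shared a region in 113 cases, and 2081 regions had no called member. Of the 129 regions with a gene higher in CPE, 61.2% had a member higher in CPE, close to the 62.0% of all regions. Of the regions with a gene higher in SNE, 53.9% did.

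To set region against region, medians were taken over members and over genes with at least 1 FPKM in either group and above 0 in both. At least 1 FPKM was reached by 53.5% of all members in CPE and by 7.67% in SNE. Among the tested genes these shares were 73.0% and 74.9%. Members thus entered mostly by their CPE value, and the part this plays in the members' medians was not tested. In 4543 of 5510 such regions (82.5%) the members' median log2 ratio was above 0 and the genes' below 0. The members' median exceeded the genes' in 5437 regions, by a median of 3.69. The 2 medians moved together only loosely, with a Spearman's rho of 0.28 over these regions, in which members and genes share reads. Among the 1378 regions with the lowest gene medians the typical member median was 2.20, and among the 1378 with the highest it was 3.02.

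**Figure D4:**
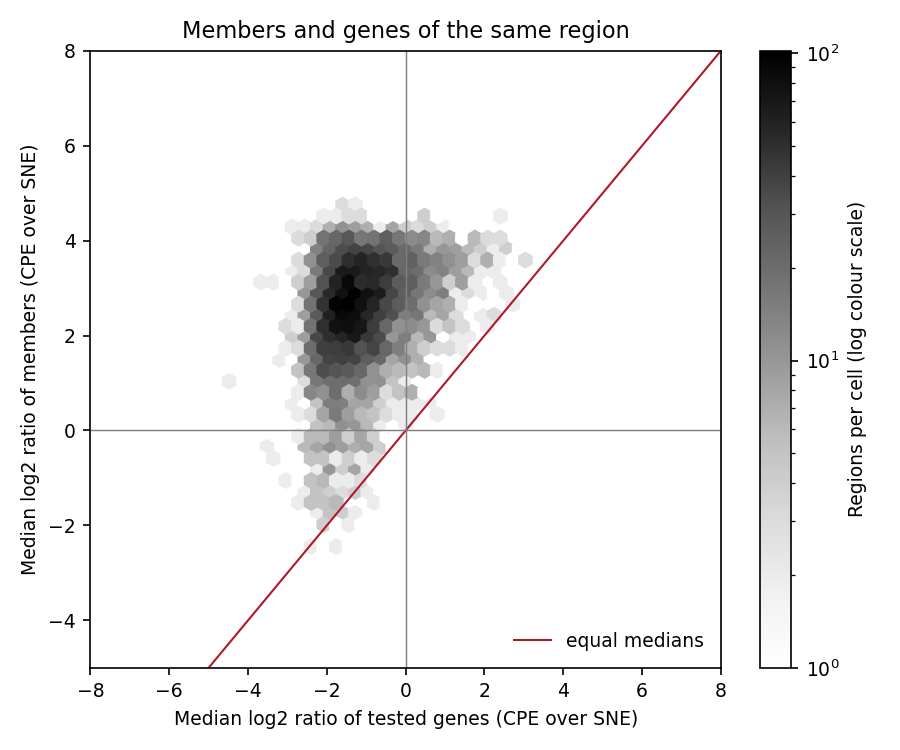
Median log2 ratio (CPE over SNE) of the members of a region against that of its tested genes, for 5510 regions, with darker cells holding more regions. Most regions (82.5%) lay in the upper left field, with members above 0 and genes below 0, and 5437 lay above the line of equal medians. Loci needed 1 FPKM in either group, which members reached mostly in CPE.

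The share of members called differed with the calls of the genes beside them. Where a gene was higher in CPE and none in SNE (118 regions), 9.59% of 1679 members were higher in CPE and 0.119% higher in SNE, and in the 11 regions with genes called both ways, 8.07% of 161 members were higher in CPE and none in SNE. Where tested genes were present and none was called (2472 regions), 6.72% of members were higher in CPE and 0.192% higher in SNE. Where a gene was higher in SNE and none in CPE (3509 regions), the shares were 5.29% and 0.535%. Between the regions with no called gene and those with a gene higher in SNE, the share higher in CPE was larger in the first kind in each class from 2 to 5 unnamed loci upward, for example 12.2% against 7.02% at 6 to 20 loci. At 1 unnamed locus it was smaller, with 31.9% of 116 against 42.4% of 158. In the 202 regions without any tested gene, 17.0% of 600 members were higher in CPE and 5.33% higher in SNE.

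Regions can also be read by the kind of gene they hold, taken from the symbols, and a region may belong to several kinds. Ribosomal protein genes encode components of the ribosome and give abundant messenger RNA. Of 61 rows with such a gene tested in these regions, 4 were higher in CPE, against 42 higher in SNE, with a median log2 ratio of -2.16. The 4 rows higher in CPE each also carried a symbol of a small nucleolar RNA hosted in the gene (RPLP2, RPS2, RPSA and RPL32, named after their values were seen), so the RNAs of host and guest were not separated. Of the 44 rows without such a symbol, none was higher in CPE by Cuffdiff, also at a p of at most 0.05 before adjustment, and 41 were higher in SNE. Among the 675 members beside the ribosomal protein genes, 35 (5.19%) were higher in CPE and none was higher in SNE by Cuffdiff (1 at a p of at most 0.05 before adjustment), with a median of 2.75. Over all members the shares were 6.23% and 0.350%, with a median of 3.26. RPL37A had 576 FPKM in CPE and 3388 FPKM in SNE (5.88-fold higher in SNE, q = 0.000706), while the 29 members of its region had medians of 0.765 FPKM in CPE and 0.104 FPKM in SNE and none was called, in the authors' deposited table. Zinc finger genes with a ZNF symbol, mostly transcriptional repressors, numbered 291 tested, with 5 higher in CPE and 84 higher in SNE. Of the tested genes of all these regions, 1.07% were higher in CPE and 33.8% in SNE. Of the 3007 members beside the zinc finger genes, 263 (8.75%) were higher in CPE and 14 (0.466%) higher in SNE, beside 6.23% and 0.350% of all members.

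HOX genes, the clustered homeobox factors that pattern the body axis, and their antisense RNAs lay in 10 of the regions. Of 23 tested rows with a homeobox gene, none was higher in CPE and 7 (30.4%) in SNE by the authors' Cuffdiff q, near the 33.8% of all tested genes in the members' regions. At a p of at most 0.05 before adjustment these counts were 0 in CPE and 8 in SNE. Of 11 tested rows with HOX antisense symbols only, none was higher in CPE and 1 in SNE, or 0 and 2 before adjustment. Of the 132 members there, 18 (13.6%) were higher in CPE and 2 (1.52%) higher in SNE, with a median log2 ratio of 1.89, beside 6.23%, 0.350% and 3.26 for all members. The region of HOXA3 to HOXA7 at chr7:27145209-27197555 (hg19) had 3 of 12 members higher in CPE, and the HOXB region at chr17:46616872-46724385 had 4 of 23. The HOX regions held a median of 4 genes and 7 unnamed loci. Histone genes lay in 12 regions, where the call was CPE for 1 of 26 members and SNE for 3. Of the 10 histone genes tested, 8 were higher in SNE.

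Small nucleolar and Cajal body RNAs guide the modification of other RNAs and remain in the nucleus. Of 208 rows with such a gene tested, some of which also named a host gene, 18 were higher in CPE and 10 in SNE. SNORD13 had 70646 FPKM in CPE and 1060 FPKM in SNE (66.7-fold higher in CPE, q = 0.000706) in the authors' deposited table. Around these genes, 887 of 17140 members (5.18%) were higher in CPE and 33 (0.193%) in SNE. Members beside microRNA genes (5.62% of 21580), antisense genes (5.54% of 18299) and genes with a LINC symbol, long noncoding RNAs between genes (6.49% of 2621), were higher in CPE at similar shares, each near the 6.23% of all members.

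The regions with the most members higher in CPE were long, between 570.2 and 1502 kb. The first, at chr8:105602961-107072752 (hg19), contained ZFPM2, a cofactor of GATA transcription factors, with 26 of 169 members higher in CPE. Its members had 0.442 to 16.3 FPKM in CPE with a median of 1.30, and 0 to 8.48 FPKM in SNE with a median of 0.0781, in the authors' deposited table. All 169 had the larger value in CPE. The 26 called members were 4.41 to 27.9-fold higher in CPE. CLOC_171273, the most abundant of these, had 3.34 FPKM in CPE and 0.124 FPKM in SNE (27.0-fold, q = 0.0151).

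FHIT, a diadenosine triphosphate hydrolase gene at a common fragile site, lay at chr3:59735036-61237133 with 6 other genes. Of 322 members, 22 were higher in CPE and none in SNE. Their values ran from 0.289 to 17.8 FPKM in CPE (median 0.867) and from 0 to 2.94 FPKM in SNE (median 0.0545), again with all 322 larger in CPE, in the authors' deposited table. FHIT itself had 9.31 FPKM in CPE and 2.61 FPKM in SNE (3.56-fold higher in CPE) and did not pass (q = 0.493). CLOC_115108 had 3.42 FPKM in CPE and 0.200 FPKM in SNE, a 17.1-fold difference that passed (q = 0.000706).

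IMMP2L lay at chr7:110303102-111202573, where 21 of 177 members were higher in CPE. The members had medians of 0.979 FPKM in CPE and 0.0420 FPKM in SNE, and 176 of 177 were larger in CPE. IMMP2L had 7.31 FPKM in CPE and 9.02 FPKM in SNE without a call (q = 0.735), and most members of its region were not called either. CLOC_162890 had 5.12 FPKM in CPE and 0.402 FPKM in SNE (12.7-fold, q = 0.000706), the most abundant called member there in the authors' deposited table.

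The microRNA host LINC00478 lay at chr21:17442842-18013002, with 21 of 128 members higher in CPE. The members had medians of 1.34 FPKM in CPE and 0.0738 FPKM in SNE, all 128 larger in CPE. LINC00478 had 21.97 FPKM in CPE and 8.36 FPKM in SNE and did not pass (q = 0.493). CLOC_100593 had 10.0232 FPKM in CPE and 0.503 FPKM in SNE, a 19.9-fold difference (q = 0.000706) in the authors' deposited table. MECOM, a zinc finger transcription factor gene of the PRDM family, lay at chr3:168798936-169381423, where 20 of 100 members were higher in CPE, a number shared with 1 other region. MECOM had 15.5 FPKM in CPE and 17.3 FPKM in SNE (q = 0.836). Its members had medians of 1.61 FPKM in CPE and 0.118 FPKM in SNE, and the called ones were 10.4 to 20.5-fold higher in CPE. No tested gene was called in any of these 5 regions.

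The SLIT2 region, chr4:20253567-20629621, had higher member levels than the 5 regions above. Its 104 members had 1.72 to 47.3 FPKM in CPE (median 5.41) and 0.0265 to 10.6 FPKM in SNE (median 0.437), and 16 were higher in CPE. SLIT2 had 24.0 FPKM in CPE and 36.7 FPKM in SNE, a difference that did not pass (q = 0.545), in the authors' deposited table. CLOC_120198 had 23.0 FPKM in CPE and 1.30 FPKM in SNE, 17.7-fold higher in CPE (q = 0.000706). That was the largest ratio among called members with at least 1 FPKM in both groups. CLOC_120195, the most abundant called member of the region, had 47.3 FPKM in CPE and 10.6 FPKM in SNE (4.44-fold, q = 0.000706).

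**Figure D5:**
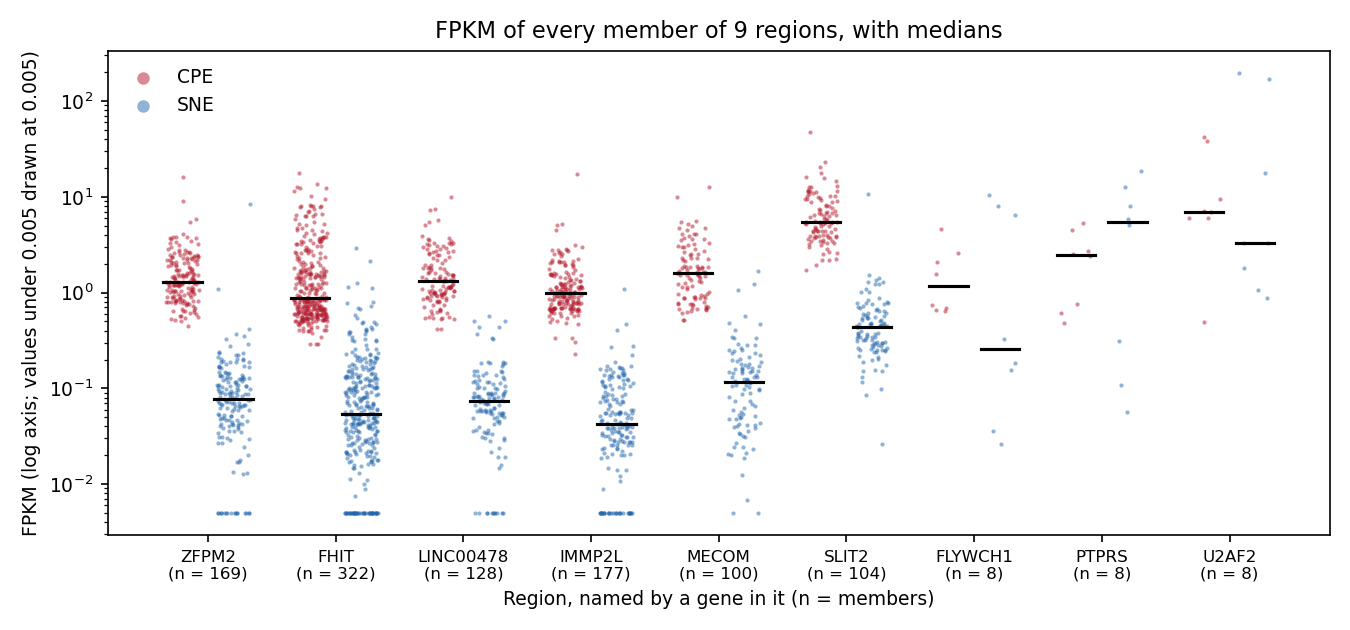
FPKM of every member in CPE (left of each pair) and SNE (right of each pair) on a log axis for 9 regions, each named by a gene in it; black bars are medians, and values under 0.005 are drawn at 0.005. In the first 6 regions the members' medians lay between 0.867 and 5.41 FPKM in CPE and between 0.0420 and 0.437 FPKM in SNE, while in the last 3 regions single members reached higher values in SNE.

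The other members of largest ratio lay beside genes that were themselves on the soluble side. CLOC_135089 had 16.6 FPKM in CPE and 1.03 FPKM in SNE (q = 0.0143). Its deposited ratio, 17.6-fold, was larger than the ratio of these values. It lay in the region of G3BP1, a stress granule protein with 69.4 FPKM in CPE and 239.9 FPKM in SNE. CLOC_125188 had 33.9 FPKM in CPE and 1.94 FPKM in SNE (17.5-fold, q = 0.00989), in the region of WWC2, which had 4.93 FPKM in CPE and 13.1 FPKM in SNE. CLOC_133442 had 17.3 FPKM in CPE and 1.10 FPKM in SNE (15.7-fold, q = 0.000706), beside MAN2A1, a Golgi mannosidase with 8.19 FPKM in CPE and 22.5 FPKM in SNE. G3BP1, WWC2 and MAN2A1 were each called higher in SNE by the authors' deposited table. CLOC_027228 had 30.9 FPKM in CPE and 1.98 FPKM in SNE (15.6-fold, q = 0.000706), in the region of DYNC2H1, the motor heavy chain of ciliary transport, which was not called (15.1 FPKM in CPE and 19.1 FPKM in SNE).

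Members higher in SNE were scattered: 398 regions had 1, 30 had 2 and 4 had 3. In the U2AF2 region, chr19:56164720-56186142, 3 of 8 members were higher in SNE. CLOC_078063 had 42.5 FPKM in CPE and 197.4 FPKM in SNE (4.65-fold higher in SNE), CLOC_078057 had 38.0 FPKM in CPE and 170.1 FPKM in SNE (4.47-fold), both at q = 0.000706, and CLOC_078056 had 6.07 FPKM in CPE and 17.7 FPKM in SNE (2.91-fold, q = 0.0200). The other members there included 4 with larger values in CPE, such as CLOC_078061 with 6.03 FPKM in CPE and 1.07 FPKM in SNE (q = 0.493). U2AF2 itself had 11.6 FPKM in CPE and 20.8 FPKM in SNE without a call (q = 0.450), by the authors' deposited table.

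The PTPRS region, chr19:5158506-5340814, had the most members on the soluble side of these, with 5 of 8 members larger in SNE. CLOC_078509 had 2.53 FPKM in CPE and 8.03 FPKM in SNE (3.18-fold higher in SNE, q = 0.000706), CLOC_078512 had 2.69 and 5.81 FPKM in CPE and SNE (q = 0.00134), and CLOC_078515 had 2.42 and 5.12 FPKM in CPE and SNE (q = 0.00989). CLOC_078513 had the highest values, 5.35 FPKM in CPE and 18.7 FPKM in SNE, and did not pass (q = 0.169). PTPRS had 1.58 FPKM in CPE and 5.03 FPKM in SNE, near the ratio of its neighbours, without a call (q = 0.0837), by the authors' deposited table. In the region of FLYWCH1, a zinc finger protein gene at chr16:2961938-3004277, 3 of 8 members were higher in SNE by 2.28 to 3.87-fold, and the other 5 were larger in CPE without a call.

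Among called members with at least 1 FPKM in both groups, the 5 lowest ratios came from single loci, and where their regions held other members, all of those were larger in CPE. A further 12 members had lower ratios than these, and none of the 12 was called. CLOC_059449 had 3.38 FPKM in CPE and 31.6 FPKM in SNE (9.35-fold higher in SNE, q = 0.000706), while the other 11 members of its region on chromosome 16 were not called. CLOC_180323 had 1.54 FPKM in CPE and 14.4 FPKM in SNE (9.34-fold, q = 0.000706), beside PKN3, a protein kinase gene higher in SNE at 4.76 FPKM in CPE and 14.8 FPKM in SNE. CLOC_130710 had 4.69 FPKM in CPE and 39.8 FPKM in SNE (8.49-fold, q = 0.000706) and was the only unnamed locus of a region on chromosome 5 with 7 genes, none of them tested. CLOC_076572 had 5.60 FPKM in CPE and 47.0 FPKM in SNE (8.40-fold, q = 0.000706), in the shortest member region, 833 bases on chromosome 19 shared with the ribosomal protein pseudogene RPL23AP2. CLOC_139383 had 3.54 FPKM in CPE and 27.0 FPKM in SNE (7.61-fold, q = 0.000706), beside HNRNPA0, an RNA-binding protein gene that was 4.48-fold higher in SNE, all in the authors' deposited table.

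The 5 regions with the most genes held from 1 to 111 members. Over all regions with 11 or more genes, 3.76% of members were higher in CPE and 0.101% in SNE. Differences of these 5 regions from those shares were not tested. The region of the SNORD115 and SNORD116 small nucleolar RNA clusters, chr15:25068794-25492435, had 77 genes, of which 75 were not tested, and 1 unnamed locus. That locus, CLOC_055964, had 8.10 FPKM in CPE and 28.1 FPKM in SNE (3.47-fold higher in SNE, q = 0.0345). A region on chromosome 17 with 30 genes, among them GIT1 and ABHD15, had 1 of 64 members higher in CPE. A region on chromosome 11 with 28 genes, 21 of them with olfactory receptor symbols and none of those tested, had 3 members and no call. A region on chromosome X with 25 genes, among them DYNLT3, a dynein light chain, and XK, a membrane protein, had 2 of 111 members higher in CPE, while both genes were higher in SNE (4.50-fold and 5.38-fold). A region on chromosome 3 with 23 genes, among them the translation initiation scaffold EIF4G1 and the clathrin adaptor subunit AP2M1, had no call among 44 members, with 0 at a p of at most 0.05 before adjustment. EIF4G1 had 102 FPKM in CPE and 402.6 FPKM in SNE (q = 0.000706), and AP2M1 had 67.8 FPKM in CPE and 225 FPKM in SNE (q = 0.0248), in the authors' deposited table.

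A few members carried much of the summed signal, more so in SNE than in CPE. The 10 most abundant members held 32.3% of the summed CPE values and 79.0% of the summed SNE values. All 10 had the larger value in SNE, but 3 were called higher in SNE, none in CPE and 7 were not called. CLOC_186871, the largest in CPE, had 49463 FPKM in CPE and 51207 FPKM in SNE (q = 0.967), near equality in the authors' deposited table. The summed FPKM of all members in CPE was 0.656 of that in SNE, and without these 10 it was 2.12 times that in SNE. CLOC_082944 had 25244 FPKM in CPE and 109370 FPKM in SNE (4.33-fold higher in SNE) and CLOC_128447 had 10279 FPKM in CPE and 53337 FPKM in SNE (5.19-fold), each the only unnamed locus of a region without a tested gene. CLOC_099703, in the region of ZNF341, had 3264 FPKM in CPE and 16371 FPKM in SNE (5.02-fold), and all 3 had q = 0.000706. The most abundant in SNE, CLOC_094071, had 20267 FPKM in CPE and 131182 FPKM in SNE without a call (q = 0.467), by the authors' deposited table. Abundance did not always go with SNE. CLOC_064197, in the region of the chromatin remodeller CHD3, had 1751 FPKM in CPE and 501.9 FPKM in SNE and was 3.49-fold higher in CPE (q = 0.000706), while LSMD1 in the same region was 5.13-fold higher in SNE.

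Members higher in CPE outnumbered those higher in SNE on each chromosome except Y. The share of members higher in CPE ran from 5.20% on chromosome 22 to 7.89% on chromosome 21, leaving out chromosome Y. Of the 4 members on Y, 3 were called, all with the larger value in SNE, and the median log2 ratio was -2.05. The 1 not called was CLOC_186871, with 49463 FPKM in CPE and 51207 FPKM in SNE. Where the reads placed on Y came from was not tested. On chromosome 19, 5.96% of 2602 members were higher in CPE, against 2.42% higher in SNE, so that 71.1% of its calls were higher in CPE, and the median log2 ratio was 2.00. On chromosome 4, by comparison, 6.71% were higher in CPE and 0.315% in SNE, with a median of 3.55. These differences between chromosomes were not tested.

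The fractions were checked on genes that were no members. NEAT1, a nuclear RNA of paraspeckles, had 44.6 FPKM in CPE and 4.11 FPKM in SNE, and the messenger RNA of GAPDH had 261 FPKM in CPE and 1320 FPKM in SNE, both called in the authors' deposited table. Of 7 markers of kidney lineage, 3 were tested at 1 FPKM or more in either group, as were 1 of 4 neuronal markers and 2 of 11 markers of blood, endothelium, liver, fibroblasts and muscle, whose highest value was 1.79 FPKM. In bulk samples, fewer cells with an RNA and less of it per cell cannot be told apart.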

How the data were processed

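RNA of 2 nuclear fractions of HEK293 cells was compared, CPE (3 samples) and SNE (3 samples). Reads were processed with TopHat2 and Cuffdiff on hg19, per the submitters' processing notes. Their versions and parameters, and how unnamed loci were defined, are not given in the sources used here. FPKM values, 1 per group, were computed by the authors over the replicates and deposited in a table of 241080 loci. The log2 ratio of CPE over SNE, the p-value and the q-value in it are the authors' own. No per-sample values were in that table, so depth is unknown and no interval, SD or test was computed. The deposited isoform table was not used, because 12307 of 14208 value pairs found once in each table (86.6%) stood under another identifier there.

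A locus was called where its status was OK and its deposited q was 0.05 or less, and the sign of the deposited log2 ratio gave the direction. This matched the table's significance mark, with 0 differences. The deposited ratio differed from that of the values by over 0.01 at 479 members, 31 of them called, and was used. Of 143234 unnamed loci in regions with 2 or more genes, 134269 were tested, 4019 exceeded the data limit, 4392 had low data, 531 were not tested and 23 failed; 1 tested locus was left out by its region of 323 bases. Genes are rows with gene identifiers, tested or not (23680, of which 12393 tested). Median ratios are over loci above 0 in both groups. Start positions are counted from 1.

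Named regions were the 5 with most members higher in CPE, 3 with most higher in SNE (of 4 tied, in text order), 5 with most genes and 5 with the highest summed CPE FPKM of called members. Named members were the 5 highest and 5 lowest ratios at 1 FPKM or more in both groups, and the most abundant called members. Examples of gene kinds were the most abundant of their kind, a rule added after the values were seen; a kind was read from symbols, with the RPLP and RPSA symbols counted as ribosomal protein genes by a later correction. The members and lists were chosen with earlier results of these data known. Promoter orientation was checked against GENCODE 29 transcripts for IMMP2L, PTPRS and U2AF2. Gene type and length were not used, since 61.5% of the regions' symbols had one in GENCODE 29. Counting was tested on simulated data. Tools were Python 3.11.15, pandas 2.3.3, numpy 2.4.6, scipy 1.17.1 and matplotlib 3.10.9.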

Additional observations from a re-analysis of the deposited data

How the results depend on the processing

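The 6 summary values were recomputed under 11 alternatives, and 40 of 62 recomputed values stayed within 1.5 times the count, 0.1 of the median log2 ratio, or the 95% Wilson interval of the share of calls (94.2% to 95.1%); none changed direction. Requiring 1 FPKM in both groups moved most: 1491 members higher in CPE, 78.6% of called members higher in CPE, a median log2 ratio of 1.60, 1368 regions with a member higher in CPE and 692 of these with a gene higher in SNE. With 2 or more tested genes in the region, 5065 members were higher in CPE and 237 in SNE (95.5% of calls), in 2335 regions, 1222 with a gene higher in SNE. With 3 or more genes, 283 members were higher in SNE (95.3% of calls in CPE), with 2497 and 1150 regions. These 2 alternatives hold fewer members, 89419 and 103467. A q of at most 0.01 gave 93.9% of calls in CPE and 1034 regions with a member higher in CPE and a gene higher in SNE. The share of calls in CPE was 93.7% at 1 FPKM in either group and 95.2% at a 2-fold minimum. With each region counted once, the mean share over regions was 91.2%, and the mean of the regions' median log2 ratios was 2.53. Centring on the tested genes at 1 FPKM in both groups subtracted their median of -1.33 and so raised every ratio. It gave 96.4% of calls in CPE and a median of 4.59. Of the 470 members higher in SNE, 148 then lay on the other side. Leaving out regions over 1 Mb, the region with the most members or the minimum region length moved nothing beyond the limits. Otherwise the cause of a change was not tested. No paired analysis was possible because the table holds 1 value per group. Depth is unknown, and q-values end at 0.000706, shared by 3950 members, which cannot be ranked by it. The members of a region share reads, so their counts are not independent.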
